A study of Mus musculus with 6 samples.

Results

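Small structured RNAs of the kinds that the exoribonuclease DIS3L2 can degrade were described in testes of mouse pups, as 10 named genes: Rmrp, Rpph1, Rn7sk, Rny1, Rny3, Vaultrc5, Terc, Rnu11, Rnu12 and Rnu73b. They were found by gene symbol in a table of 54232 genes and took up 11 rows, because Rmrp has 2 gene models. The samples were whole testes at postnatal day 4 in 3 samples labelled Dis3l2 WT, which served as controls, and 3 labelled as Dis3l2 conditional knockout (cKO). The strain was given as B6D2F1, the first-generation cross of C57BL/6 and DBA/2, although the labels call it inbred. No treatment was listed. The labels name neither the Cre driver nor the deleted exons, so the cells in which the gene was removed are not known here. They also do not tie each sample to an animal of its own, and p-values here speak only of the variation among the samples, which may be partly technical.

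DIS3L2 is a cytoplasmic 3′ to 5′ exoribonuclease that prefers RNAs with an untemplated tail of uridines, and terminal uridylyltransferases add such tails. Its best known target is the precursor of the let-7 microRNAs, and in cultured cells it also removes tailed forms of transcripts made by RNA polymerase III and of small nuclear RNAs. Many of these RNAs fold tightly and work inside protein complexes, in transfer RNA and ribosomal RNA processing, splicing, transcription control or telomere synthesis. In bulk testis, fewer cells of a type and less RNA per cell cannot be told apart.

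The sequences below bear on which of the 10 genes could be counted. They are the GENCODE M21 transcript sequences (GRCm38), printed 5′ to 3′ as DNA letters. Rpph1 is shown (bases 1 to 80 and 220 to 319 of 319) because an exon of another gene covers most of it, and its capitals mark the bases in no exon of another gene on its strand. Rn7sk (bases 182 to 331 of 331) and its look-alike Gm24447 (bases 182 to 338 of 338) are shown because they start with the same 241 bases, and the capitals mark what follows that shared start.
Rpph1 start: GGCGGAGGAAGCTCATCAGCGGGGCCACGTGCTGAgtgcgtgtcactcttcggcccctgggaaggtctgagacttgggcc
Rpph1 end: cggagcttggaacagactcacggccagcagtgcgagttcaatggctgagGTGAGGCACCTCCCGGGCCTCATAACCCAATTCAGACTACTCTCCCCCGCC
Rn7sk end: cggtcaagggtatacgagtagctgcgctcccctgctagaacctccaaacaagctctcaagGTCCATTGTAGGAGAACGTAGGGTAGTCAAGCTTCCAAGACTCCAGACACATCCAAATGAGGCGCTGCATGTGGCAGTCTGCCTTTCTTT
Gm24447 end: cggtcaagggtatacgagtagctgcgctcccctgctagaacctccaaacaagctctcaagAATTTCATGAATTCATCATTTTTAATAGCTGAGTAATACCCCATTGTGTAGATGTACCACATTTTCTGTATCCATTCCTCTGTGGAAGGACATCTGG

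A further 4 members are shown for their T runs and boxes. Rny1 and Rny3 end in a run of T, in capitals, the letters at which RNA polymerase III stops. The minor spliceosomal RNA Rnu11 has its longest T run, also in capitals, inside the transcript. The capitals in Rnu73b mark TGATGA near the 5′ end and CTGA near the 3′ end, which resemble the C and D boxes of its snoRNA class.
Rny1: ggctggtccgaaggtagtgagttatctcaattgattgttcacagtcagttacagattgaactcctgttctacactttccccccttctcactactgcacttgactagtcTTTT
Rny3: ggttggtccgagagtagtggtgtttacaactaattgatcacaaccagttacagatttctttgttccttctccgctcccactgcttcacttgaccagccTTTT
Rnu11: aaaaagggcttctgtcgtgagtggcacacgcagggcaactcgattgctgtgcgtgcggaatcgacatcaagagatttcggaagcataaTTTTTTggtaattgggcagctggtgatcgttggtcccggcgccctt
Rnu73b: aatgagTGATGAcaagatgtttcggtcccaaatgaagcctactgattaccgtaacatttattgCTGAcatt

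Of the 11 rows, 3 ended in TTTT on the transcript strand: Rny1, Rny3 and Vaultrc5. The same ending was found in 12.7% of 3886 small RNA transcripts, in 2.83% of the 566 of the type misc_RNA that includes these 3, and in 1.34% of all 141767 transcripts. The pair of boxes in Rnu73b, searched in the first and the last 20 bases, was present in 20.5% of 1507 snoRNA transcripts. These matches describe letters only.

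Total counts ranged from 26126694 to 43265614 per library, with cKO replicate 1 the smallest. This library stood apart in number of calls: with it left out, 3375 genes in place of 1681 differed between the groups. The 3884 rows of small RNA types took 0.115% to 0.134% of the counts in each library. Dis3l2 itself had 32.0 ± 0.93 CPM in WT and 31.7 ± 1.65 CPM in cKO (SD, n = 3 each), where CPM are counts scaled to a common library size by the trimmed mean of M-values (TMM). Its log2 fold change of -0.01 (edgeR adjusted p = 0.956) ranged from -0.058 to 0.013 when single libraries were left out. Whole-gene counts include exons outside a deletion and cells without one, so they do not check the genotype labels. Among marker lists, 12 of 15 general germ cell markers were lower in cKO, and their summed level was 1309 to 1377 CPM in WT and 714 to 768.1 CPM in cKO. The defining germ cell gene Dazl, for an RNA-binding protein, had 330 ± 13.6 CPM in WT and 195 ± 13.1 CPM in cKO (SD, n = 3 each). Of all genes tested, 3.4% were called higher and 4.94% lower. Of 12 Sertoli cell markers, 3 were higher and 1 was lower (summed level 3950 to 4118 CPM in WT and 4187 to 4936 CPM in cKO). Of 8 Leydig cell markers, 4 were higher (765.2 to 784.8 and 819.9 to 997.6 CPM). Of 8 macrophage and leukocyte markers, 4 were higher (79.87 to 88.31 and 106.8 to 109.6 CPM). Of 8 peritubular and endothelial markers, 1 was higher (1962 to 2032 and 1908 to 2361 CPM). With single libraries left out, 11 or 12 germ cell markers were called. The numbers of the other lists moved more: 1 (without WT replicate 1 or cKO replicate 2), 2 (without WT replicate 2 or 3) or 9 (without cKO replicate 1) Sertoli cell markers, and 3 to 6 (without cKO replicate 1) Leydig cell markers. Of the macrophage and leukocyte markers, 0 were called without WT replicate 2, 1 without WT replicate 1, WT replicate 3 or cKO replicate 2, and 2 without cKO replicate 3. Of the peritubular and endothelial markers, 0 were called without WT replicate 2 and 6 without cKO replicate 1.

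None of the small structured RNAs that could be tested was called as different between the genotypes. The sizes of change that the counts leave possible range from narrow for 2 RNAs to very wide for 4. Of the 10 genes, 6 had enough counts for the test, which were Rn7sk, Rnu11, Terc, Vaultrc5, Rny3 and Rnu12. Rny1 had too few counts, and Rmrp, Rpph1 and Rnu73b had a count of 0 in all 6 libraries. In the edgeR quasi-likelihood test, 0 of the 6 were called at an adjusted p under 0.05, against 8.34% of the 20153 genes tested. Higher calls made up 3.4% and lower calls 4.94% of those genes. At an unadjusted p under 0.05 the number was also 0 of 6, against 23.3% of all genes. With limma-voom 0 were called. In DESeq2 only Rn7sk and Rnu11 had an adjusted p, and neither was called. Rnu12, Rny3, Terc and Vaultrc5 had none and could not be called there, and their unadjusted DESeq2 p ran from 0.283 to 0.548. In 0 of 6 did the groups not overlap, against 28.2% of all genes. The median log2 fold change of the 6 was 0.28 and that of all genes 0.0096. The members' median was lower with any 1 library left out, from 0.14 without WT replicate 2, WT replicate 3 or cKO replicate 2 to 0.21 without WT replicate 1, and it was 0.08 for the 2 members that pass a filter of 1 CPM. All 6 intervals held 0, and 5 of the 6 fitted values were above 0.

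**Figure D1:**
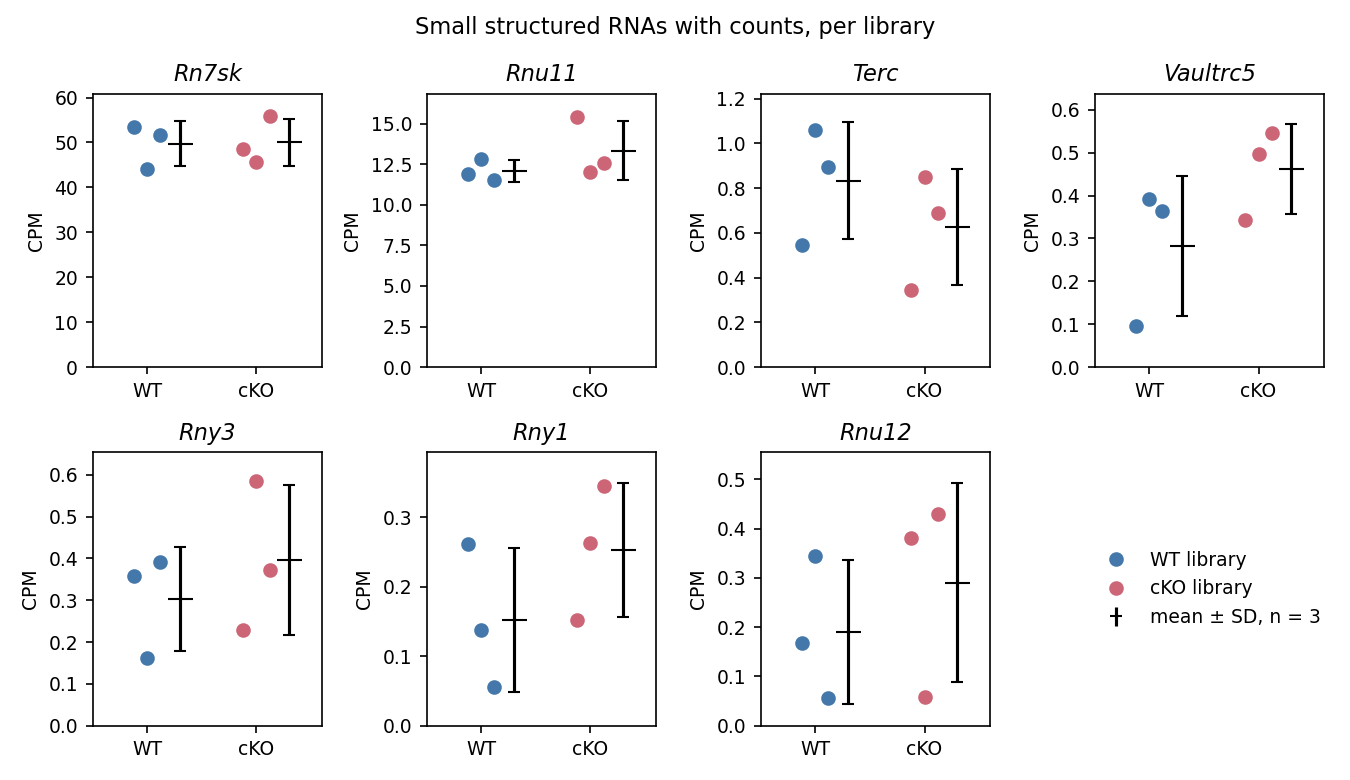
Level of each small structured RNA with counts, in CPM on linear axes from 0, for 3 WT and 3 cKO libraries with the mean and SD beside them. The groups overlap in every panel, and single values run from 55.8 CPM for Rn7sk down to 0.0558 CPM for Rnu12 and Rny1.

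Rn7sk (chromosome 9, 78175303 to 78175633, minus strand, GRCm38) is the scaffold that keeps the elongation kinase P-TEFb inactive, and it held 77.5% of the 13933 counts of all members. Its counts were 2248, 1909 and 1855 in WT and 1275, 1559 and 1946 in cKO, which are 53.5, 44.0 and 51.7 CPM and 48.6, 45.6 and 55.8 CPM. The lowest library was a WT one and the highest a cKO one. The means were 49.7 ± 5.08 CPM in WT and 49.98 ± 5.24 CPM in cKO (SD, n = 3 each). The log2 fold change was 0.01 (SE 0.09, edgeR adjusted p = 0.972), with a 95% interval of -0.19 to 0.21. In linear terms the interval runs from 0.876-fold to 1.15-fold, so a 2-fold change of the counts of this row lies outside it in either direction. It holds for the counts of whole testis and does not bear on single cell types. The fitted value was below 0 without WT replicate 2 (-0.073) or cKO replicate 3 (-0.083) and stayed uncalled.

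What was counted as Rn7sk was a small share of the counts in rows that resemble it. As the stretches printed above show, the shared start ends at base 241: its first 241 bases are identical to the start of Gm24447 (chromosome 15, 93234363 to 93234700, plus strand, 338 bases). Of its 50-base stretches, 68.1% also occur in a gene model elsewhere. The counting step kept only reads with 1 place in the genome, and the read length was not given in the sources used here. Altogether 18 other rows were at least 85% identical to Rn7sk over at least 60% of its length, and 16 of them had counts. Rn7sk made up 8.93% to 10.2% of the counts of this family in WT and 12.2% to 15.1% in cKO.

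The difference in share came with the look-alike rows, which were described after their values were seen. Gm24447, a predicted gene of the type misc_RNA, held at least 93.4% of the look-alikes' counts in every library. The WT libraries had 444, 365 and 497 CPM and the cKO libraries 266, 306 and 295 CPM, so each WT library was above each cKO library. Its log2 fold change was -0.59 (SE 0.09, edgeR adjusted p = 0.00236), with an interval of -0.79 to -0.39, and the call held in all 15 alternative analyses run. Of the 8 look-alikes tested, 2 fell, namely Gm24447 and Gm23624, and 0 rose, against 4.94% and 3.4% of all genes tested. Their sequences are alike, so the 8 rows are not independent results. The call of Gm23624 (log2 fold change -0.59, edgeR adjusted p = 0.0257) was lost without WT replicate 1 (adjusted p = 0.0852), WT replicate 2 (0.0754) or WT replicate 3 (0.113). All 8 fitted values were below 0, from -0.74 to -0.26 with a median of -0.57. The log2 ratio of Rn7sk to Gm24447 counts within a library averaged -3.12 ± 0.12 over the WT libraries and -2.54 ± 0.19 over the cKO libraries (SD, n = 3 each). For the difference of 0.59 an exact permutation test (two-sided) gave p = 0.1, and no smaller p is possible with 3 libraries a group. Gm24447 was taken up after its values were seen, and Rn7sk had a log2 fold change of 0.01. The ratio therefore restates the change of Gm24447, and its p adds no independent support. Summed over Rn7sk and its look-alikes, the family had 513.9 ± 73 CPM in WT and 358.6 ± 22 CPM in cKO (SD, n = 3 each). Reads of near-identical copies can be assigned to one row or another, so which locus gave these reads is uncertain. The germ cell markers were lower in the same cKO libraries, and their part in the look-alikes' difference was not tested.

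**Figure D2:**
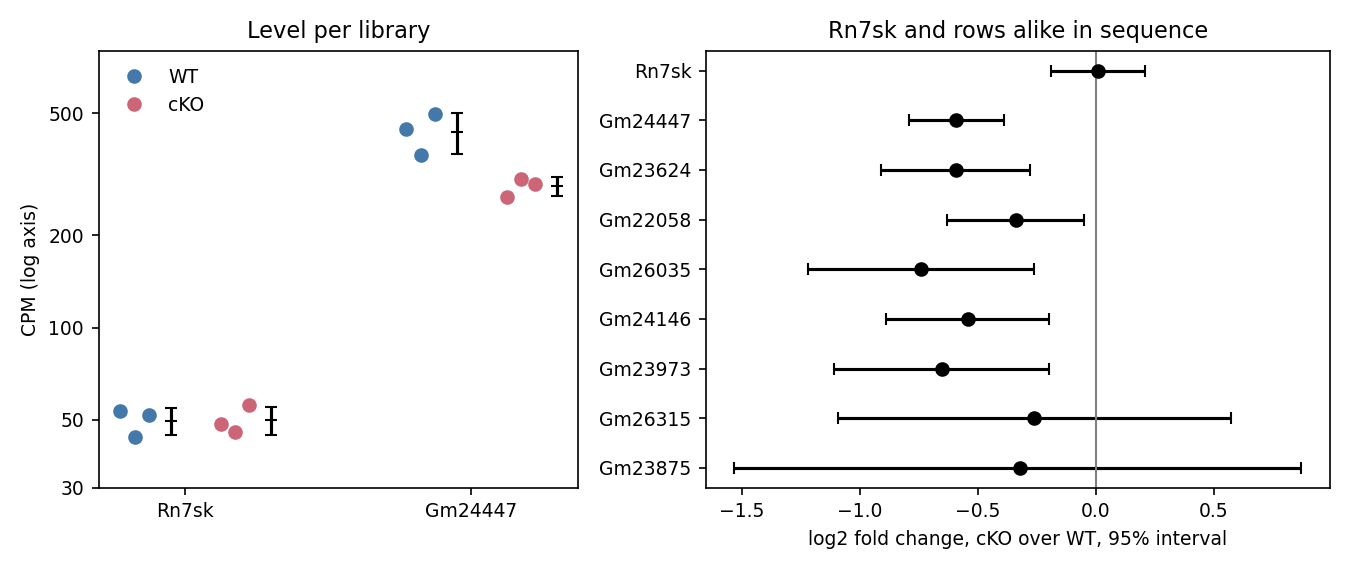
Left, CPM of Rn7sk and of its largest look-alike Gm24447 in each library on a log axis, with the mean and SD. Right, log2 fold change of cKO over WT with its 95% interval for Rn7sk and the 8 look-alikes tested, where Rn7sk sits at 0.01 and the look-alikes between -0.74 and -0.26.

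The RNA parts of RNase P and RNase MRP were not measurable in this table. Rmrp, the RNA of RNase MRP, which cuts ribosomal RNA precursors, had 0 counts in both of its models. Its ribozyme model (chromosome 4, 43492788 to 43493058, minus strand, 271 bases) lies wholly inside a lincRNA model of the same name and strand (43492783 to 43493063, 281 bases). All 271 bases are therefore shared, and only 10 bases of the longer model are not. Rpph1, the RNA of RNase P, which trims the 5′ ends of transfer RNA precursors, also had 0 counts (chromosome 14, 50807449 to 50807767, minus strand, 319 bases). An exon of the protein-coding gene Ccnb1ip1 on the same strand covers 233 of its bases and leaves 86. Reads over more than 1 gene were not counted, so a 0 in these rows sets no upper limit on the RNA.

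Rows nested like the ribozyme model of Rmrp were all at 0. Of the 236 small RNA rows, this one included, that lie wholly inside exons of other genes on the same strand, 236 had a count of 0 in every library. Any read in such a nested row also lies in the other gene and was left out by the counting rule. No other result was therefore possible for the 236 rows, and they do not test why Rmrp was at 0. Of the 3531 rows that share no base with another gene on their strand, 55.3% were at 0. Ccnb1ip1, which itself acts in meiotic recombination, had 69, 127 and 105 counts in WT and 41, 81 and 45 in cKO, and these contain no read that also lies in Rpph1. Ccdc107 overlaps 124 bases of Rmrp on the opposite strand, and its 453, 529 and 360 counts in WT and 401, 389 and 538 in cKO were assigned by strand (edgeR adjusted p = 0.132).

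**Figure D3:**
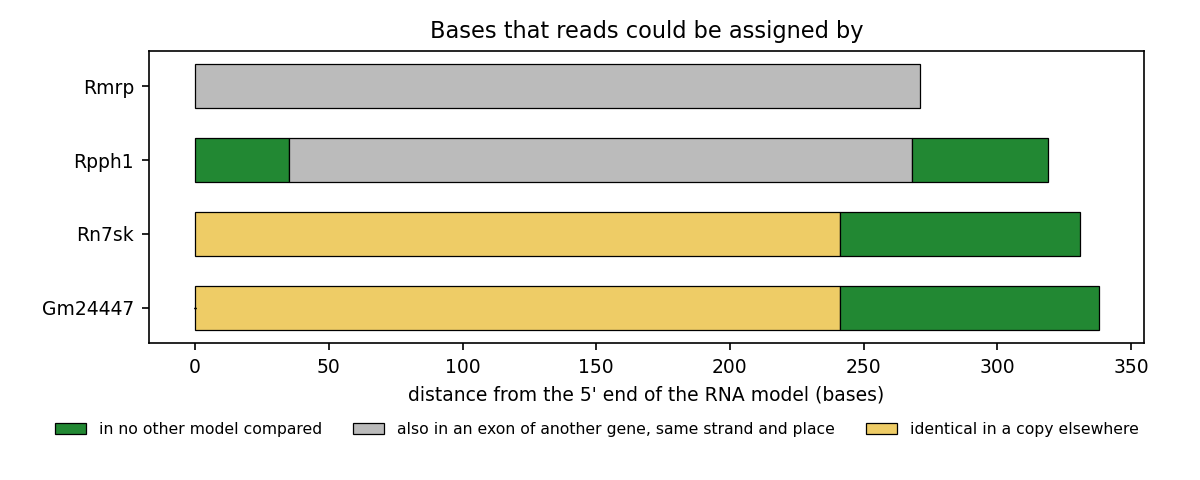
Gene models of Rmrp, Rpph1, Rn7sk and Gm24447 drawn to scale in bases from the 5′ end of the RNA. All 271 bases of Rmrp and 233 of 319 bases of Rpph1 lie in an exon of another gene, and 241 bases are identical between Rn7sk and Gm24447.

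Copies of Rpph1 elsewhere did collect counts. Rprl3 (chromosome 8, 3803069 to 3803358), which is 94.1% identical to Rpph1 over 204 aligned bases, had 44.4, 42.7 and 48.6 CPM in the WT libraries and 25.3, 48.3 and 55.8 CPM in the cKO libraries. The library of cKO replicate 1 was the lowest and the other two cKO libraries each lay above at least 2 of the 3 WT libraries. Its log2 fold change was -0.06, with an interval of -0.50 to 0.38 (edgeR adjusted p = 0.9), and the value was 0.20 without cKO replicate 1 (adjusted p = 0.0679). The smaller copy Rprl2 had a log2 fold change of 0.06 with an interval of -1.01 to 1.13.

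Rnu11 (chromosome 4, 132270080 to 132270213, minus strand) is the U11 RNA, which recognises the 5′ splice site of the rare introns removed by the minor spliceosome. It had 501, 556 and 414 counts in WT and 405, 412 and 441 in cKO, or 11.9, 12.8 and 11.5 CPM and 15.4, 12.05 and 12.6 CPM. Only cKO replicate 1 was above all WT libraries. The means were 12.1 ± 0.643 CPM and 13.4 ± 1.81 CPM (SD, n = 3 each), and the log2 fold change was 0.14 (SE 0.11, edgeR adjusted p = 0.513). Its 95% interval of -0.10 to 0.39 corresponds to 0.93-fold to 1.31-fold, and without cKO replicate 1 the log2 fold change was 0.026. None of its 50-base stretches occurs in a gene model elsewhere, and the 4 rows that resemble it had 1 to 8 counts per library in sum. The lincRNA model Gm28872 covers all 134 bases on the opposite strand and had 0 to 4 counts per library, so the reads lay on the strand of Rnu11.

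Rnu12 (chromosome 15, 83149644 to 83149794, plus strand), the U12 RNA that pairs with the branch site of the same introns, was far lower. Its counts were 7, 15 and 2 in WT and 10, 2 and 15 in cKO, with a library of 2 counts in each group. The log2 fold change of 0.56 had an interval of -1.12 to 2.27 (0.459-fold to 4.81-fold), the widest of the 6, and an adjusted p of 0.725 in edgeR. The fitted value was 1.32 without WT replicate 2 and 0.12 without cKO replicate 3. Of its 50-base stretches, 53.9% occur in gene models elsewhere, although the 3 rows that resemble it had 0 counts.

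The Y RNAs, which bind the protein Ro60 in RNA quality control, both lie on chromosome 6. Rny3 (47781624 to 47781725, plus strand) had 15, 7 and 14 counts in WT and 6, 20 and 13 in cKO, or 0.357, 0.161 and 0.391 CPM and 0.229, 0.585 and 0.373 CPM. The lowest level was in a WT library and the highest in a cKO library, and the groups overlap. Its log2 fold change was 0.41 (adjusted p = 0.72, edgeR quasi-likelihood test), with an interval of -0.79 to 1.63 or 0.577-fold to 3.09-fold. Without cKO replicate 2 it was 0.016. Rny1 (47788069 to 47788180, minus strand) had 11, 6 and 2 counts in WT and 4, 9 and 12 in cKO, too few for the test. Pooled over the libraries of a group, this was 0.157 CPM in WT (exact 95% Poisson interval 0.0943 to 0.245) and 0.262 CPM in cKO (0.17 to 0.387). The ratio of 1.67 had an exact counting interval of 0.885 to 3.22, which covers counting error only and not the spread between samples.

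Vaultrc5 (chromosome 18, 36801866 to 36802008, plus strand) is the vault RNA, a part of the large cytoplasmic vault particles. It had 4, 17 and 13 counts in WT and 9, 17 and 19 in cKO, or 0.0952, 0.391 and 0.363 CPM and 0.343, 0.497 and 0.545 CPM. The WT libraries were split, with replicate 1 far below the others, and 2 of the WT libraries lay above the lowest cKO library. The log2 fold change of 0.72 was the largest of the 6 (SE 0.57, edgeR adjusted p = 0.504). Its interval ran from -0.52 to 1.97, or 0.7-fold to 3.91-fold. Without WT replicate 1 the log2 fold change was 0.30 (adjusted p = 0.825).

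Terc (chromosome 3, 96414437 to 96414859, minus strand), the template RNA of telomerase, was the only tested member with a fitted value below 0. It had 23, 46 and 32 counts in WT and 9, 29 and 24 in cKO. The means were 0.833 ± 0.261 CPM and 0.626 ± 0.258 CPM (SD, n = 3 each), and cKO replicate 1 was the lowest at 0.343 CPM. The log2 fold change was -0.39 (SE 0.43, edgeR adjusted p = 0.645), with an interval of -1.32 to 0.54 or 0.4-fold to 1.45-fold. Without cKO replicate 1 it was -0.12. The interval ends below a 2-fold rise, as it did for Rn7sk and Rnu11, so for 3 of the 6 a rise of that size is outside the interval.

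**Figure D4:**
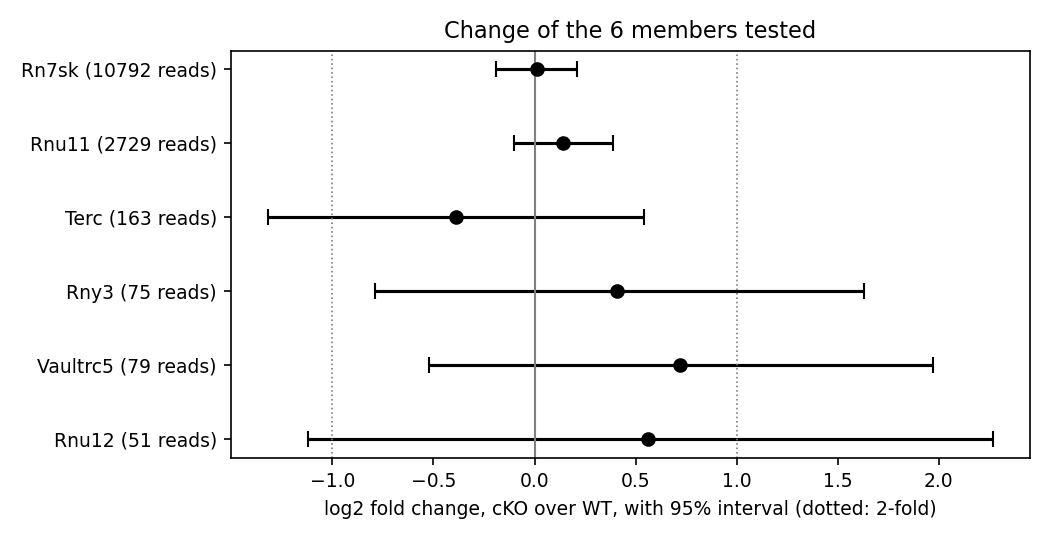
Log2 fold change of cKO over WT with its 95% interval for the 6 small structured RNAs tested, sorted by the width of the interval, with the summed counts of 6 libraries beside each name and dotted lines at 2-fold. The intervals of Rn7sk and Rnu11 lie between the dotted lines, and that of Rnu12 reaches from -1.12 to 2.27.

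Rnu73b, named as a snoRNA of the box C/D class that guides methylation of other RNAs, was at 0 in all 6 libraries (chromosome 3, 86140618 to 86140688, minus strand, 71 bases). It lies in an intron of Rps3a1, a ribosomal protein gene with 413 ± 21.2 CPM in WT and 410 ± 17.1 CPM in cKO (SD, n = 3 each). A count of 0 allows up to 3 counts, or 0.0693 to 0.115 CPM depending on the library, for counting error only. Snord73a, the nearest gene on its left and itself a snoRNA, had 0 to 3 counts per library.

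Compared per full length of the gene model, the 7 RNAs with counts fell into a high pair and a low group. Reads with several places in the genome were not counted, and the lengths were not corrected for this. The share of the short stretches described above that also occur in gene models elsewhere was 68.1% for Rn7sk. It was 53.9% for Rnu12, 19% for Rny1 and 0% for Rnu11, Terc, Rny3 and Vaultrc5. The levels are therefore not strictly comparable between these RNAs, and the part of this in their order was not tested. In WT, Rn7sk had 150 ± 15.3 CPM per kilobase and Rnu11 90.2 ± 4.8 (SD, n = 3). The next were Rny3 with 2.97 ± 1.21, Vaultrc5 with 1.98 ± 1.14, Terc with 1.97 ± 0.617, Rny1 with 1.36 ± 0.926 and Rnu12 with 1.25 ± 0.968 CPM per kilobase. Neighbours among these last 5 did not differ beyond their spread. In cKO the order of the upper 3 was the same, with 151 ± 15.8 for Rn7sk, 99.8 ± 13.5 for Rnu11 and 3.88 ± 1.76 for Rny3. Counting error alone would give Rn7sk in WT a coefficient of variation of 2.23%, and 10.2% was observed. For Rnu12 in WT the corresponding values were 35.4% and 77.2%.

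Small RNAs were poorly represented in these libraries as a class. The molecule field names polyA RNA whereas the protocol describes random and poly(T) priming of total RNA, and most RNAs of these classes carry no poly(A) tail. Of 3884 small RNA rows, 1629 had any count and 106 (2.73%) were kept for the test, against 20153 of all 54232 rows. Reads over more than 1 gene or with more than 1 place were also not counted, and the part of each was not tested. The share kept was 2.39% of the rows under 100 bases, 1.86% of those from 100 to under 200 bases and 8.6% of those of 200 bases or more. Of the 106 tested, 4.72% were called, 3 higher and 2 lower, against 8.34% of all genes. The lower calls were the look-alikes of Rn7sk described above. The higher calls, named after their values were seen, included CT010467.1, a row annotated as ribosomal RNA, with 126 ± 25.8 CPM in WT and 332 ± 60.4 CPM in cKO (SD, n = 3 each). Its log2 fold change was 1.40 (edgeR adjusted p = 0.000126), and the libraries had been through a targeted depletion of unwanted transcripts, whose part was not tested. The neighbouring rows Gm26917 and Gm42418, of the type lincRNA, were not called, and their groups overlapped: Gm26917 had 2607 ± 351 CPM in WT and 1980 ± 711 CPM in cKO, and Gm42418 had 4743 ± 379 and 5301 ± 1699 CPM (SD, n = 3 each; edgeR adjusted p = 0.234 and 0.629). The others were Gm27786 (log2 fold change 1.34, edgeR adjusted p = 0.0468) and the snoRNA Snord15a (1.54, adjusted p = 0.0374). The call of Gm27786 was lost without WT replicate 1 (adjusted p = 0.153), WT replicate 2 (0.179), cKO replicate 2 (0.144) or cKO replicate 3 (0.0637). That of Snord15a was lost without WT replicate 1 (0.0891), WT replicate 2 (0.0977), WT replicate 3 (0.128), cKO replicate 2 (0.155) or cKO replicate 3 (0.1).

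**Figure D5:**
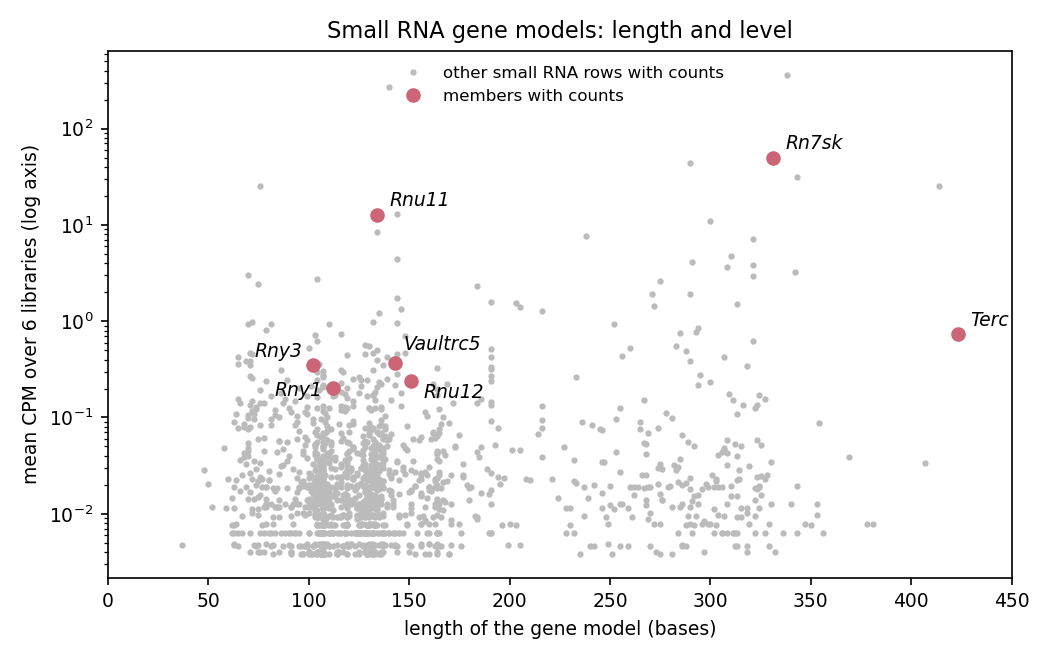
Mean CPM over 6 libraries, on a log axis, against the length of the gene model in bases for small RNA rows with at least 1 count, with the 7 members that had counts marked. Rn7sk and Rnu11 lie far above most rows, and the other 5 members lie below 1 CPM.

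The protein partners of these RNAs were counted on 131 genes in 10 lists, all of them tested. Of the 131, 17 fell, 1 rose and 113 were not called, or 13.7% called against 8.34% of all genes, and their median log2 fold change was -0.08. The number of these calls moved with single libraries left out, as did the number among all genes, which was 1681 with all libraries. Without WT replicate 1, 2 or 3, the partner calls were 6, 4 or 6, against 759, 623 or 837 among all genes. Without cKO replicate 1, 2 or 3, they were 31, 6 or 13, against 3375, 801 or 1475 among all genes. Only Lsm4, Mtrex, Ints10 and Ints6 were called whichever 1 of the 6 libraries was left out. The general germ cell markers were lower in the same libraries, with a median log2 fold change of -0.76, and their part in these calls was not tested.

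Among the 21 genes of uridylation and 3′ decay, 3 fell and 0 rose, against 4.94% and 3.4% of all genes tested. Lsm4, a subunit of the ring that binds the 3′ uridines of U6 RNA and of decaying messenger RNA, went from 92.1 ± 6.62 to 57.2 ± 2.77 CPM (SD, n = 3 each). Its log2 fold change was -0.69, with an interval of -0.83 to -0.54 (edgeR adjusted p = 9.62e-05). Mtrex, the helicase that feeds RNA to the nuclear exosome, fell by 0.34 on the log2 scale (edgeR adjusted p = 0.0017). Tut1, the uridylyltransferase of U6 RNA, fell by 0.30 (edgeR adjusted p = 0.0145), a call lost without WT replicate 1 (adjusted p = 0.057), WT replicate 2 (0.109), WT replicate 3 (0.0545) or cKO replicate 2 (0.0832). Of the 14 Integrator genes, whose complex cuts the 3′ ends of small nuclear RNAs such as Rnu11 and Rnu12, 2 fell, Ints10 by 0.39 and Ints6 by 0.32 on the log2 scale (edgeR adjusted p = 0.00208 and 0.00428), and 0 rose. Of the 18 called partner genes, 3 (Lsm4, Ints10 and Naf1) lie on chromosome 8, where 13.5% of 1053 tested genes were called, against 8.06% of the 19100 on all others.

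In the list of RNA polymerase III, which makes most of these RNAs, and the activator complex SNAPc, 1 of 23 rose and 2 fell. Among all genes tested, 3.4% rose and 4.94% fell. The alternative subunit gene Polr3gl had 34.1 ± 1.78 CPM in WT and 42.5 ± 0.927 CPM in cKO (SD, n = 3 each), a log2 fold change of 0.32 (edgeR adjusted p = 0.0129). Its paralog Polr3g had a log2 fold change of -0.26 (edgeR adjusted p = 0.0484), and the large subunit gene Polr3b one of -0.29 (edgeR adjusted p = 0.0198). The call of Polr3gl was lost without WT replicate 1 (adjusted p = 0.069), WT replicate 2 (0.0978) or cKO replicate 2 (0.07), and that of Polr3b without WT replicate 2 (0.141), WT replicate 3 (0.0859) or cKO replicate 2 (0.109). The call of Polr3g was kept only when cKO replicate 1 was the library left out, and its adjusted p reached 0.209 without WT replicate 1.

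The remaining lists gave 10 called genes, all lower. Of all genes tested, 8.34% were called, and 4.94% were called lower. The shares of 9.09% for RNase P and RNase MRP, 10% for the Ro60 list and 11.1% for the minor spliceosome lie near the first value. Of 12 genes for telomerase and H/ACA proteins, which assemble with Terc, 3 fell: Shq1 (log2 fold change -0.44), Naf1 (-0.33) and Gar1 (-0.23). Of 9 box C/D snoRNA protein genes, 3 fell: Znhit3 (-0.45), Fbl (-0.29), the methyltransferase, and Rpap3 (-0.28). Of 18 minor spliceosome genes, 2 fell: Pdcd7 (-0.33), a protein of the U11 and U12 particle, and Zrsr2 (-0.19). Of 11 protein genes of RNase P and RNase MRP, 1 fell, Rpp40 (-0.34). Of 10 genes in the list of Ro60, La and Y RNA binding proteins, 1 fell, the La-related gene Larp4 (-0.19). Binding of Larp4 to Y RNA is not shown here. Each of these 10 calls was lost without WT replicate 1 and without WT replicate 2, and all but that of Rpap3 also without WT replicate 3. Their highest adjusted p with a library left out ran from 0.0983 for Rpap3 to 0.208 for Larp4, both without WT replicate 2. Of the 10 genes of the 7SK particle and P-TEFb and the 3 vault protein genes, 0 were called in edgeR, DESeq2 or limma-voom. With 8.34% of all genes called, 0 calls in lists this short say little about them. At an unadjusted p under 0.05 the numbers in edgeR were 1 of 10 and 0 of 3, against 23.3% of all genes. Without cKO replicate 3, the list of the 7SK particle and P-TEFb had 1 called gene. The lowest p in these lists belonged to Larp7, which protects the 3′ end of Rn7sk (log2 fold change -0.13, edgeR adjusted p = 0.188), and to Parp4 (0.12, edgeR adjusted p = 0.221).

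Over the 6 libraries, the genes whose log2 CPM followed that of the 3 most counted members best were, for Rn7sk, Cep164 (Pearson r 0.981) and Gm5221 (0.976). For Rnu11 they were March7 (0.992) and Tppp (0.990), and for Terc they were Ivns1abp (0.995) and 3000002C10Rik (0.990). These genes are the top of many compared over 6 points that share their depth and scaling. An r above 0.9 was reached by 43 of 15725 genes for Rn7sk, 159 of 15725 for Rnu11 and 169 of 15726 for Terc. Between the 6 tested members themselves r ranged from -0.72 for Rnu11 and Terc to 0.67 for Rnu11 and Rnu12.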

How the data were processed

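Per the labels' protocols, total RNA of whole testes was primed with random and poly(T) primers, strand-selected and depleted of targeted transcripts, while the molecule field names polyA RNA. The authors deposited unnormalized read counts for each gene. Per the file headers these came from featureCounts 1.6.4 with strand setting 1 on GENCODE M18, without options for multi-mapped reads, reads over several genes or pairs. The submitters' processing notes name cutadapt, HISAT2 and GRCm38.p5. A gene length column, deposited in bases, served for levels per kilobase. Names, gene types and sequences came from GENCODE M21, which matched 54165 of 54232 genes and placed all 11 rows at the same coordinates.

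Low rows were removed by filterByExpr, leaving 20153 genes. It asked for a total of 15 counts. It also asked for a level worth 10 counts at the median library size, in as many libraries as the smallest group holds. TMM scaling and the edgeR 4.0.16 quasi-likelihood test in R 4.3.3 followed (group only, two-sided), with Benjamini-Hochberg adjustment across these genes. Called means an adjusted p under 0.05. The 95% intervals invert that test. For genes not kept, exact intervals were computed from pooled counts with scipy 1.17.1. Copies were searched with blastn 2.17.0 among transcripts on the same strand. No genome sequence was used here, so copies outside annotated transcripts, and the bases after each gene, were not searched.

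Named genes were the members, Dis3l2, up to 3 called genes with the lowest p per partner list or else the 1 with the lowest p, genes overlapping a member or nearest within 5 kb, the most alike genes, and the 2 most abundant markers per list. Not all of these are printed. The members, lists and rules were chosen with earlier results of these data known. Replicate numbers were not used as pairs in the main test. Alternatives were other scalings and filters, DESeq2 1.42.0, limma-voom (limma 3.58.1), the robust fit, a replicate block, mitochondrial, haemoglobin and ribosomal protein genes left out, and each library left out in turn.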

Additional observations from a re-analysis of the deposited data

How the results depend on the processing

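The number of members called was 0 in all 15 alternatives, although in DESeq2 only Rn7sk and Rnu11 had an adjusted p and could be called. The intervals of Rny3, Rnu12, Vaultrc5, Terc and Rny1 hold changes above or below 2-fold. In WT these RNAs varied between libraries by 31.3% to 77.2% (coefficient of variation), where counting error at this depth alone gives 17.2% to 39.7%. In cKO these RNAs varied by 22.9% to 69.6%, where counting error alone gives 22% to 34.6%. Vaultrc5 in cKO, at 22.9%, was below its counting error of 25.8%. Where the spread comes from was not tested. The fitted log2 fold change of Rn7sk turned to -0.011 with library size alone, to -0.00098 with no filter on low counts, and ranged from -0.083 to 0.07 with single libraries left out. The corresponding ranges were -0.058 to 0.013 for Dis3l2, -0.052 to 0.017 for Rps3a1 and -0.29 to 0.20 for Rprl3. All genes called ranged from 623 (without WT replicate 2) to 3375 (without cKO replicate 1), and partner genes called from 4 to 31 without the same libraries. The median of the members ranged from 0.14 to 0.21 with single libraries left out. It was 0.08 with at least 1 CPM in 3 samples, because only Rn7sk and Rnu11 were then tested. The other alternatives gave 0.26 to 0.28. The replicate block gave 1798 calls among all genes, 19 among partner genes and 0 among the members, and it ended the calls of Gm27786 (adjusted p = 0.0612), Snord15a (0.0529) and Rpp40 (0.0567) in edgeR. Without the filter on low counts the edgeR calls of Gar1 (0.0527), Larp4 (0.0642) and Zrsr2 (0.0877) were lost, and DESeq2 gave no adjusted p for Snord15a. Deviations from the group means correlated at 0.01 to 0.07 for same-numbered samples and at -0.05 to 0.02 for differently numbered ones. These values cannot tell whether same-numbered samples share more than the number, and the labels name no pairs.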
